A study of Mus musculus with 2 samples.

Results

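The cytosolic ribosome is built from a small and a large subunit, and the genes described here encode its protein components. They were taken from the gene list of the deposited matrices by symbol: every symbol that begins with Rpl or Rps followed by a digit or by p, a or x, without the Rps6k kinases and without names that end in -ps and a number. This gave 86 genes of the 31053 listed. Of these, 77 encode the standard proteins, 31 of the small subunit (Rps symbols) and 46 of the large subunit (Rpl symbols), among them the 3 stalk proteins Rplp0, Rplp1 and Rplp2. A further 8 are paralogs or variants that are transcribed from other loci (Rpl3l, Rpl7l1, Rpl10l, Rpl22l1, Rpl36al, Rpl39l, Rps27l and Rps27rt). The last gene, Rps19bp1, fits the symbol rule but encodes a protein named for its binding to Rps19 and is not a ribosomal protein.

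Whole eye cups were taken at postnatal day 0 (P0), after removal of cornea, lens and optic nerve, and single-cell RNA was counted as unique molecular identifiers (UMIs). The control was Myrf fl/fl, in which both alleles of Myrf carry loxP sites and no Cre is present. The mutant was Rx>cre Myrf fl/fl, in which Cre driven by the Rx promoter, active in the early eye field, removes Myrf from retina and retinal pigment epithelium (RPE) alike while periocular cells keep it. Each genotype was 1 library of 3 pooled eye cups, so no test between genotypes was possible, and the intervals given below cover counting error only.

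Ribosomal protein genes are among the most highly transcribed genes of every nucleated cell. Most of their products are needed in equal amounts (the stalk proteins Rplp1 and Rplp2 are present in more copies), and their mRNAs share a pyrimidine-rich 5′ end, the terminal oligopyrimidine motif, through which growth signals set their translation. The share of a cell's mRNA that they occupy is known to be high in proliferating precursors and lower in cells that devote their mRNA to a few specialised products. In the eye cup the RPE is such a cell, with abundant transcripts for pigment synthesis and the visual cycle. Myrf encodes a membrane-bound transcription factor that in the eye is made in the RPE.

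After quality limits and removal of called doublets, 12514 control and 10851 mutant cells remained, with a median of 4273 and 4821 UMIs per cell and 69191158 and 64656152 UMIs in all. Cells were clustered without the ribosomal protein genes, and 30 of 35 clusters were named from marker genes into 15 classes, called RPE-like, retinal progenitor-like and so on. Cells in the 5 unnamed clusters made up 14.2% of control and 10.1% of mutant cells. Only 7 classes held at least 100 cells in each library. The libraries shared 59 cell barcodes. In RPE-like cells the targeted gene Myrf was counted 746 times in the control and 63 times in the mutant. Per 1000000 UMIs of the class (counts scaled in this way are called CPM below) this was 229 and 26.8, a log2 ratio of mutant over control of -3.10 (95% counting interval -3.49 to -2.72).

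Ribosomal protein genes took up 18.7% of all control UMIs and 18.0% of all mutant UMIs. Of the 86 genes, 85 had at least 1 UMI and 84 had at least 100 in both libraries. Rpl10l, a retrogene known from testis, had 0 UMIs in both. Ranked by UMIs over all cells, 61 of the 100 most abundant genes in the control library and 59 in the mutant library were ribosomal protein genes. The highest were Rps24 (4761 and 4703 CPM in control and mutant), Rpl13 (4542 and 4508), Rpl41 (4416 and 4167) and Rps29 (4354 and 4443). The small-subunit genes had a median of 2857 CPM in control and 2729 in mutant, and the large-subunit genes without the stalk 2245 and 2209. These levels are counts of transcript 3′ ends and were not divided by length. The genes of the standard proteins ranged from 152 to 4761 CPM in the control library. Reads of 3 genes can fall in an annotated gene on the same strand (Rpl13, Rpl13a and Rpl36al), and their counts are uncertain to that extent. Listed processed pseudogenes, 9 rows that the rule leaves out, held 6571 UMIs in control and 5003 in mutant, 0.0508% and 0.0431% of the ribosomal protein UMIs.

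Across cell classes the share differed far more than between genotypes. Muscle-like cells stood highest, with 37.3% of UMIs in control (125 cells) and 34.9% in mutant (74 cells). Red blood-like cells, in which globin transcripts take up most of the mRNA, stood lowest, with 2.80% and 2.92%. Between these ends, surface epithelium-like cells had 24.4% and 22.2%, endothelial-like cells 21.3% and 21.6%, and mesenchyme-like cells 21.1% and 20.7%. Retinal progenitor-like cells, the class with most cells, had 18.6% and 18.2%, and neurogenic-like cells, which carry Atoh7 and Dll3, 18.4% and 17.5%. The share was lower in the differentiated neurons, with 16.0% and 15.3% in amacrine-like and 13.4% and 13.3% in photoreceptor-like cells. RPE-like cells had 11.4% in control, the second lowest share of the 15 classes, and 14.7% in mutant, above photoreceptor-like cells.

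**Figure D1:**
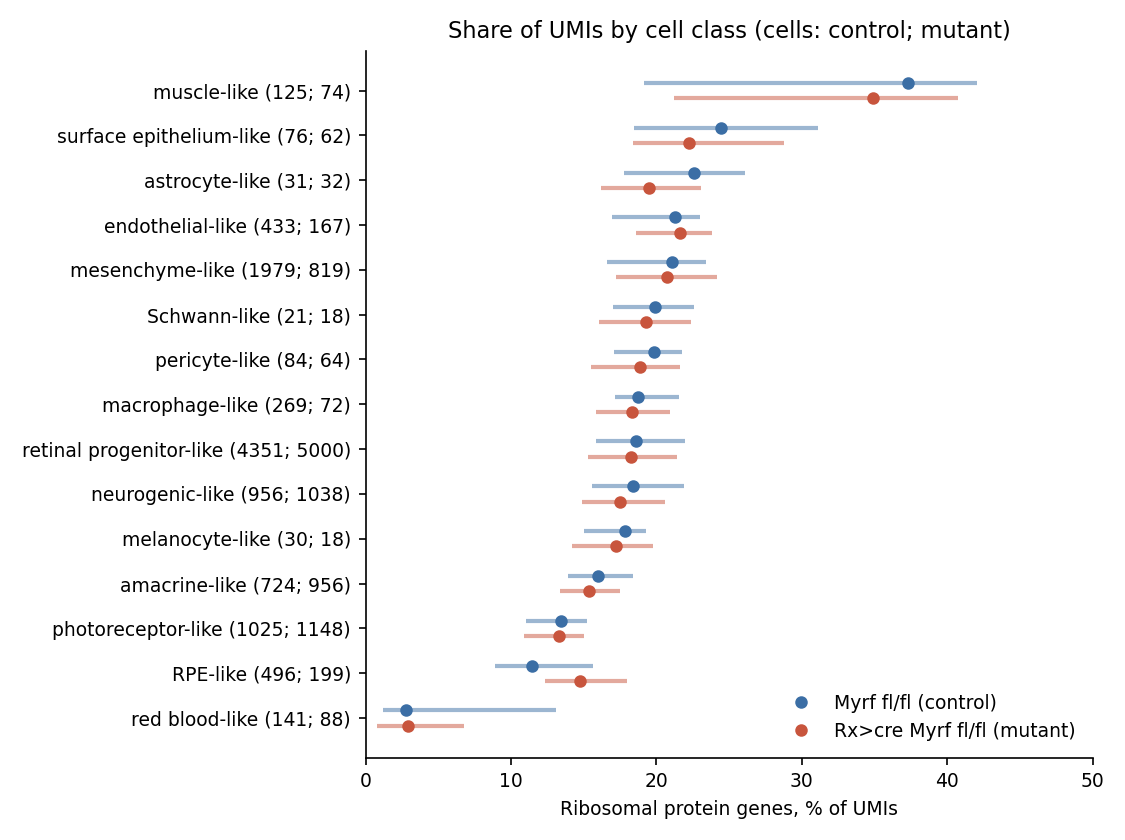
Share of UMIs from ribosomal protein genes (x axis, percent of all UMIs) in each cell class (y axis, with the number of control and mutant cells). Points are the summed share of each library and bars span the 25th to 75th percentile of single cells. Muscle-like cells lie near 37.3% and 34.9%, red blood-like cells near 2.80% and 2.92%, and RPE-like cells are the one class of over 100 cells in each library in which the points lie clearly apart, at 11.4% and 14.7%.

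The order of the classes was almost the same in both libraries. Progenitor-like cells had a 1.38-fold higher share than photoreceptor-like cells in the control and also in the mutant library (log2 ratio 0.47 and 0.46). The size of this ratio depended on the processing, with 0.23 and 0.26 at clustering resolution 0.5, 0.29 in both libraries with called doublets kept and 0.70 and 0.64 in cells of at most 2000 UMIs. Single cells varied widely around these sums. In the control library the SD over cells was 4.34 percentage points in progenitor-like, 3.27 in photoreceptor-like, 5.18 in RPE-like and 11.4 in muscle-like cells. Neighbours in the order such as progenitor-like and neurogenic-like cells therefore overlapped over almost their whole range.

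Within a class, clusters differed in the same way. The muscle-like cluster led by Myog, Myf5 and Myod1, the transcription factors of muscle precursors, had 40.2% in control and 36.6% in mutant. The one led by Acta1, Tnnc2 and Ckm, genes of muscle fibres, had 21.4% and 18.6%, in cells with a median of only 1600 and 1168 UMIs. Among surface epithelium-like cells, the cluster with Krt14 and Krt5, keratins of basal cells, had 29.6% and 28.3%. The cluster with Krt13 and Krt6a had 18.4% and 18.3%.

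Retinal progenitor-like cells split by cell cycle genes. Of 5 clusters, the one led by Ass1, Ncald and Miat, which also carries Hes5, had the highest share, 23.1% in control and 22.1% in mutant. The cluster with Mcm3, Mcm4 and Mcm6, subunits of the replication helicase, had 20.4% and 19.9%, and the cluster with Cenpa, Cdkn3 and Ccnb2 had 19.2% and 19.0%. The cluster with replication histones had 15.6% in both libraries, and the cluster with Ube2c, Ccnb1 and Plk1, genes of mitosis, had 15.5% and 15.7%. Depth moved with this order, since the median was 3643 UMIs per control cell in the first of these and 6598 in the last. Among cells of 4000 to 8000 UMIs only, the 5 control values were 23.6%, 20.5%, 19.1%, 15.5% and 15.1%. The 2 neurogenic-like clusters, with 21.3% and 15.3% over all control cells, kept that distance in the same range of depth (21.2% and 15.3%). Among photoreceptor-like cells the rod cluster with Nr2e3, Sag and Gngt1 had 11.9% and 11.7%, the cone cluster with Opn1sw, Pde6h and Gnat2 13.1% and 13.2%, and the cluster with Insm2 and Nrl 14.5% and 14.4%.

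**Figure D2:**
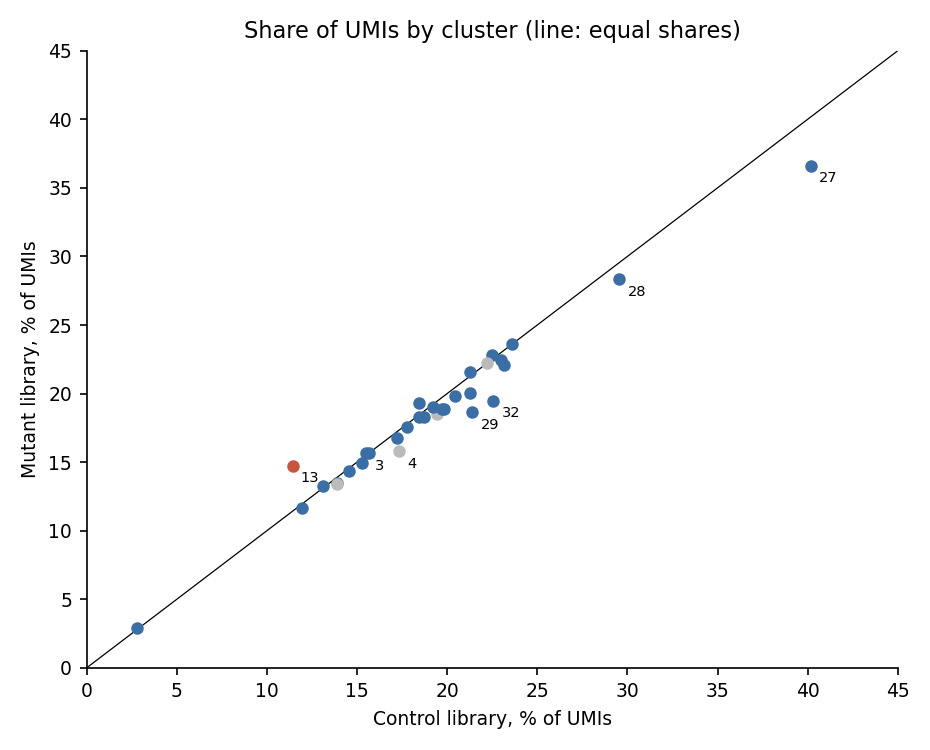
Share of UMIs from ribosomal protein genes in the control (x axis) and mutant library (y axis), in percent, for each cluster with at least 20 cells in both libraries. The line marks equal shares, named clusters are blue, unnamed ones grey and the RPE-like cluster (number 13) red; it lies at 11.4% and 14.7%, above the line, while the muscle precursor cluster (number 27) lies at 40.2% and 36.6%, below it.

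The ratio between genotypes was small outside the RPE. Over all cells the log2 ratio of mutant over control was -0.06. Of the 15 classes, 12 had a lower share in the mutant and 3 a higher one, with log2 ratios from -0.21 (astrocyte-like, 31 and 32 cells) to 0.37 (RPE-like). Within the neural retina the ratio was -0.03 for progenitors, -0.07 for neurogenic cells, -0.02 for photoreceptors and -0.06 for amacrine cells. In mesenchyme-like cells the ratio was -0.02, and -0.04 without a shallow cluster that held 776 control but 53 mutant cells. After thinning of each cell to 1000 UMIs the direction in mesenchyme-like cells turned, with a mean share of 20.4% in control and 21.0% in mutant (0.04), and it turned in red blood-like cells too, from 0.06 to -0.52. By depth, the mesenchyme-like ratio was 0.10 in cells of up to 1000 UMIs and 0.26 in cells of 2000 to 4000 UMIs (25 and 28 mutant cells), and from -0.05 to -0.03 in deeper cells. In endothelial-like cells it was 0.02. With 1 library per genotype, differences of this size cannot be told apart from differences between libraries.

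In RPE-like cells the share was 11.4% (95% exact interval 11.4 to 11.5%) in control and 14.7% (14.7 to 14.8%) in mutant, a log2 ratio of 0.37 (0.36 to 0.37). The 25th and 75th percentiles over cells were 8.89% and 15.6% in control and 12.3% and 18.0% in mutant, so the cells of both libraries overlapped. The class held 496 control and 199 mutant cells of unequal depth, with a median of 2551 and 10566 UMIs. The share differed between cells of different depth in both libraries, and whether cells of unequal depth are otherwise alike was not tested. In the bins with at least 20 cells in each library the mutant share was the higher one. It was 14.5% against 12.0% in cells of up to 1000 UMIs, 17.5% against 14.5% in cells of 4000 to 8000 UMIs, 15.8% against 12.4% in cells of 8000 to 16000 UMIs and 14.0% against 9.70% above 16000 UMIs. Cells of 1000 to 4000 UMIs were not compared, because each bin held fewer than 20 mutant cells. After random thinning of the cells to 1000 UMIs each, which left out 100 control and 24 mutant cells, the mean share was 12.9% ± 5.51 (SD over 396 cells) in control and 15.4% ± 4.56 (SD over 175 cells) in mutant, a log2 ratio of 0.25.

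**Figure D3:**
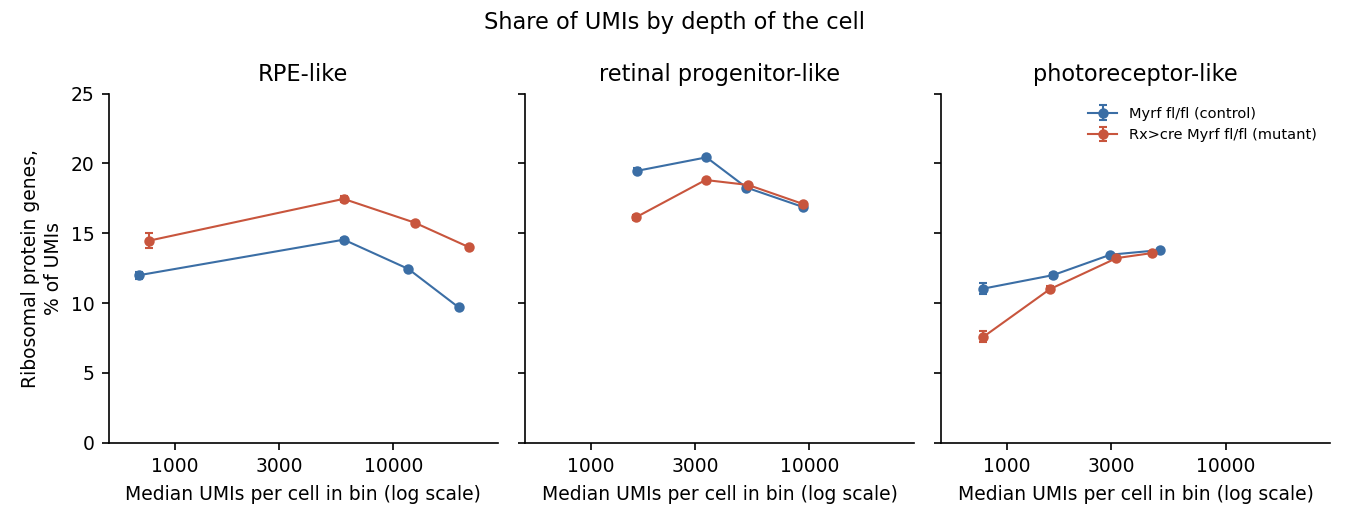
Share of UMIs from ribosomal protein genes (y axis, percent) against the median UMIs per cell of each depth bin (x axis, log scale) in RPE-like, retinal progenitor-like and photoreceptor-like cells, control in blue and mutant in red, with 95% exact intervals. In RPE-like cells the mutant lies above the control in each of the 4 bins, and in progenitor-like cells the control lies above the mutant in the 2 shallower bins and just below it in the 2 deeper ones.

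In progenitor-like cells the difference did not hold across depth. In cells of 1000 to 2000 UMIs the share was 19.5% in control and 16.1% in mutant, and in cells of 2000 to 4000 UMIs 20.4% and 18.8%. In cells of 4000 to 8000 UMIs it was 18.3% and 18.5%, and in cells of 8000 to 16000 UMIs 16.9% and 17.1%. Photoreceptor-like cells had the lower share in the mutant in all 4 bins, with log2 ratios from -0.54 in the shallowest bin (30 and 23 cells) to -0.02 in the deepest.

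The higher share in RPE-like cells of the mutant came from nearly all of the genes rather than from a few. Of 83 ribosomal protein genes with at least 50 UMIs over both libraries, 50 were higher in the mutant by a log2 ratio of at least 0.32 (CPM with 1 added), and 0 were lower by that much. Among all 8982 genes tested the same way, 17.4% were past this limit upward, 21.2% downward and 38.5% in either direction. In cells of more alike depth the count of higher genes was nearer the share of all genes. After thinning to 1000 UMIs per cell 18 of 82 genes were higher and 1 lower by that much, where 22.7% of all genes were higher and 23% lower. In cells of 4000 to 8000 UMIs 24 of 81 were higher and 0 lower, where 24% of all genes were higher and 19.6% lower. The median over the ribosomal protein genes was then 0.23 and 0.25, against 0.05 and 0.06 over all genes, and 76 and 79 of them were above 0. Over all RPE-like cells the log2 ratio was above 0 for 82 of the 83 genes, against 49.7% of all genes, and the counting interval lay above 0 for 78. The median was 0.36, against a median near 0 (-0.00) over all genes and 0.10 over the 312 other genes with at least 2232 UMIs in the class, 0.25 times the median of the ribosomal protein genes. Both subunits shifted alike, with a median of 0.34 for the small and 0.36 for the large. The small-subunit genes held 44.0% of the core ribosomal protein UMIs in control and 43.7% in mutant RPE-like cells. When each gene was divided by the ribosomal protein sum in place of all UMIs, 1 gene was past that limit.

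**Figure D4:**
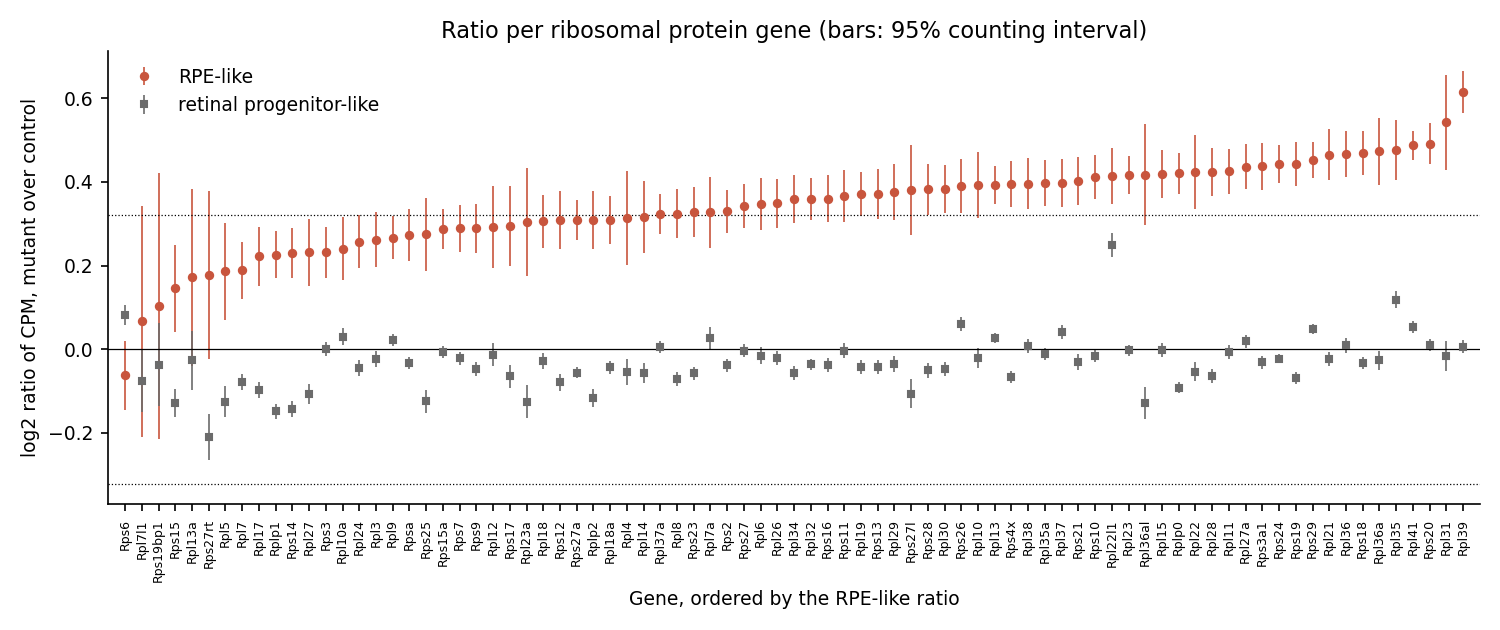
Log2 ratio of CPM, mutant over control (y axis), of the ribosomal protein genes with at least 50 UMIs in RPE-like cells (red; genes not reported here are left out) and the same gene in retinal progenitor-like cells (grey), ordered by the RPE-like ratio, with 95% counting intervals; dotted lines mark log2 ratios of 0.32 in either direction. The RPE-like values run from -0.06 (Rps6) to 0.61 (Rpl39), and the progenitor-like values lie around 0, with Rpl22l1 at 0.25.

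The 4 highest ratios in RPE-like cells belonged to Rpl39, Rpl31, Rps20 and Rpl41. Rpl39, a small protein at the exit tunnel of the large subunit (chrX:37082520-37085402, minus strand, GRCm38), had 6145 UMIs in control and 6792 in mutant, 1885 and 2886 CPM, a log2 ratio of 0.61 (0.56 to 0.66). In progenitor-like cells its levels were 2957 and 2969 CPM. Rpl31 had 378 CPM in control and 551 in mutant (0.54, interval 0.43 to 0.66), Rps20 2009 and 2824 (0.49) and Rpl41, the shortest ribosomal protein, 4072 and 5710 (0.49). Each of these also had a ratio above the ribosomal protein sum, by 0.25, 0.18, 0.12 and 0.12 on the log2 scale.

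Rps6 was the exception among the standard genes. It encodes the small-subunit protein that S6 kinase phosphorylates (chr4:86854660-86857412, minus strand), and in RPE-like cells it had 2918 UMIs in control and 2017 in mutant, 895 and 857 CPM, a log2 ratio of -0.06 (-0.15 to 0.02). Relative to the ribosomal protein sum this was -0.43 (-0.51 to -0.35), the one gene past the limit on that scale. In progenitor-like cells Rps6 had 1103 and 1168 CPM (0.08). Of the genes that are not core components, Rpl7l1, a paralog of Rpl7 that takes part in ribosome assembly, had 78.2 and 82.0 CPM (0.07, interval -0.21 to 0.34), and Rps19bp1 58.9 and 63.3 CPM (0.10, interval -0.21 to 0.42). The stalk genes, whose proteins recruit elongation factors, were at 0.42 (Rplp0), 0.23 (Rplp1) and 0.31 (Rplp2).

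In the other classes hardly any ribosomal protein gene passed a log2 ratio of 0.32 in either direction. In progenitor-like cells 0 of 83 did, where 12.2% of all genes did, and 7.74% of the 155 other genes of like abundance (at least 27171 UMIs in the class). No test underlies this count, and in cells of at most 2000 UMIs 27 of 81 genes passed the limit, all lower in the mutant, where 25.1% of all genes were lower. The count was 0 of 83 in neurogenic-like cells (17.9% of all genes), in photoreceptor-like cells (17.9%) and in amacrine-like cells (18.5%), and in mesenchyme-like cells 0 of 84 (14.5%). Among other abundant genes, chosen as in RPE-like cells, the share past the limit was 7.45%, 5.31%, 6.38% and 12.1% in these classes. In endothelial-like cells 1 of 83 did (24% of all genes), Rps19bp1, with 44.7 CPM in control and 33.5 in mutant. Over all cells 1 of 84 did (19.5% of all genes), Rpl39l. The extremes recurred between classes. Rps27rt, an intronless copy of Rps27, had 237 CPM in control and 205 in mutant progenitor-like cells (-0.21), and it was lowest or second lowest in neurogenic-like (-0.27), photoreceptor-like (-0.21), amacrine-like (-0.28) and mesenchyme-like cells (-0.22). Rpl35 was at 0.12 in progenitor-like cells and at 0.08, 0.15, 0.09 and 0.10 in these 4. All these comparisons use the same 2 libraries, so a difference between the libraries enters each of them.

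Against the other cells of the same library, RPE-like cells were low for most ribosomal protein genes in the control. Of 84 genes tested, 64 were past 1.5-fold lower there than in all other kept cells, and 40.3% of all genes were. In the mutant 6 of 84 were, where 43% of all genes were. The median log2 ratio to other cells was -0.73 in control and -0.29 in mutant, against -0.36 and -0.41 over all genes. Rpsa (-1.18 in control) and Rpl22 (-1.05) were low in control RPE-like cells, and Rpl22l1 was higher than in other cells in both libraries (0.33 and 0.77). Photoreceptor-like cells, with 32 genes past 1.5-fold lower in control and 25 in mutant (35.2% and 34.6% of all genes), stayed near the same median in both (-0.47 and -0.46). Over all genes the photoreceptor-like median was -0.08 in both libraries.

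Other components of the translation machinery differed unevenly in RPE-like cells. Among ribosomal proteins listed under other symbols, Fau had 1978 CPM in control and 2602 in mutant (0.39) and Rack1 701 and 812 (0.21). Of 7 genes tested in the elongation list, which also holds Tpt1, 3 were higher and 1 lower by at least 0.32, with a median of 0.29. Eef1a1, which brings aminoacyl-tRNA to the ribosome, had 3551 and 4347 CPM (0.29). The 1 lower gene was Tpt1, whose mRNA also begins with a terminal oligopyrimidine motif. It had 5886 CPM in control and 4116 in mutant (-0.52, interval -0.55 to -0.48). Summed with Tpt1, the list held 1.14% of UMIs in control and 1.09% in mutant. Over all genes tested in the class 17.4% were higher and 21.2% lower by this limit. Of 27 initiation factors 5 were higher and 0 lower (median 0.13). Of 19 ribosome biogenesis genes 3 were higher and 3 lower (median 0.11), and of 77 mitochondrial ribosome genes 14 were higher and 2 lower (median 0.19). The share of higher genes in these 3 lists was near that of all genes, while fewer initiation and mitochondrial ribosome genes than of all genes were lower, and all 3 medians were above that of all genes (-0.00). The regulators of ribosome production, among them Myc, Mtor and the 4E-binding proteins, had a median of -0.14 with 1 of 11 higher and 3 lower. The 1 higher gene was the 4E-binding protein gene Eif4ebp1, with 105 and 109 UMIs (0.51).

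Several measured features differed between the RPE-like cells of the libraries beside the ribosomal protein share. The 14 RPE marker genes summed to 38649 CPM in control and 20885 in mutant, and all but Rpe65, the visual cycle isomerase, which had 0 UMIs in mutant, were detected in both. Ttr, a carrier of thyroxine and retinol, had 4905 and 1117 CPM and Ptgds, a prostaglandin synthase, 12641 and 5650. The 50 most abundant genes outside the ribosomal protein set held 22.9% of UMIs in control and 19.9% in mutant. When these 50 were left out of the total, the log2 ratio was 0.31 and 35 genes were higher by at least 0.32, where 14.4% of all genes were. Gm42418, a transcript that overlaps the ribosomal RNA repeat, had 5564 and 2731 CPM. The 10 mesenchyme markers summed to 2425 CPM in control and 340 in mutant RPE-like cells, the 7 ciliary margin markers to 2087 and 607, and the 10 retinal progenitor markers to 1489 and 1701. Each was far below its level in its own class where that class was named (59828 and 72301 CPM for mesenchyme, 11522 and 11634 for progenitor markers). The median mitochondrial share was 4.58% and 5.39%. The part of these in the ribosomal protein share was not tested. Both pools held cells with Xist and cells with Y-linked transcripts, and the mutant share was the higher one in both. It was 14.4% against 9.50% where Xist alone was counted (80 mutant and 81 control cells) and 14.7% against 11.7% where Y-linked transcripts alone were (36 and 129 cells). The depth of these cells was unequal, with medians of 17254.5 UMIs in mutant and 11018 in control cells for Xist. For Y-linked transcripts the medians were 14028.5 and 10247 UMIs. Each median was above that of the class in its library, so the split does not hold depth equal.

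Promoter sequences are shown for the genes at the ends of the RPE-like range and for the paralogs with the widest range between classes, because the genes of the set moved together in RPE-like cells with few exceptions. RefSeq promoters of build GRCm38.p6 matched 66 of the 86 genes, with 78 promoters in all. Each line runs from 80 bases before to 15 bases after the annotated start of transcription, and capitals mark a run of at least 8 C or T that overlaps the 10 bases on either side of the start.
Rpl39 (chrX:37085208-37085302, minus strand): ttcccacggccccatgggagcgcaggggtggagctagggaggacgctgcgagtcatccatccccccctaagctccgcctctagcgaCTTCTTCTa
Rpl31 (chr1:39367771-39367865, plus strand): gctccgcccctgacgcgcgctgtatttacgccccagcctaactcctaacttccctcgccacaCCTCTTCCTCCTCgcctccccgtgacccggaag
Rpl41 (chr10:128549154-128549248, minus strand): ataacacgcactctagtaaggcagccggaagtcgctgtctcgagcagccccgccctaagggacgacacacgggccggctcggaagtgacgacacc
Rps6 (chr4:86857353-86857447, minus strand): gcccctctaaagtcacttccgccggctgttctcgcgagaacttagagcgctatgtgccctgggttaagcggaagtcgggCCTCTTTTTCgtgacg
Rpl22l1 (chr3:28805428-28805522, plus strand): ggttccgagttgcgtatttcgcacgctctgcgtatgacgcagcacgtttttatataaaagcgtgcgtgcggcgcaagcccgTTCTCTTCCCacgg
Rpl39l (chr16:10170148-10170242, plus strand): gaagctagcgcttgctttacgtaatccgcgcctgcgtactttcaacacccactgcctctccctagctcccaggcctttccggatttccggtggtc

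Such a run was present in 30 of the 78 ribosomal protein promoters (38.5%), against 13.7% of all 32851 promoters. Rpl39, Rpl31, Rps6 and Rpl22l1 had one, of 8, 13, 10 and 10 bases, and Rpl41 and Rpl39l did not. The call rests on the annotated starts, which for Rpl39, Rps6 and Rpl22l1 differ from the ends of the gene coordinates given in the text. Other starts were not searched, so a gene counted as without a run was not shown to lack one. The letters CCGGAAG, found on either strand anywhere in the 300 bases from 250 before to 50 after the start, were in 34.6% of the ribosomal protein promoters and 8.86% of all. On the reverse strand these letters include CTTCC, which can lie within a pyrimidine run. AAGATGGC was in 10.3% and 2.75%, and TATAAA in 8.97% and 13.6%. In RPE-like cells the 29 genes with a run had a median log2 ratio of 0.38 and the 34 without one 0.35. The 25 genes with CCGGAAG had a median of 0.40 and the 38 without it 0.33. The ranges overlapped throughout, and Rps6, at the bottom of the range, carries a run of 10 bases.

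The paralogs Rpl39l and Rpl22l1 differed most between cell classes. Over the 7 larger classes, the highest level of a core gene was a median of 1.70-fold above its lowest (the smaller of the fold ranges of both libraries), and at most 2.93-fold, for Rplp1. Rpl22l1 exceeded this with 3.76-fold. Rpl39l had 26.4 CPM in mesenchyme-like and 0.592 CPM in endothelial-like cells of the control, and since the latter rests on 2 UMIs no exact fold can be read. The paralogs Rps27l, Rpl7l1, Rps27rt and Rpl36al, with 1.75-fold, 1.67-fold, 1.63-fold and 1.39-fold, lay within the range of the core genes. Rpl41 and Rpl10 followed Rplp1 with 2.58-fold and 2.56-fold, and all 3 were highest in mesenchyme-like cells of the control.

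Rpl22l1 (chr3:28805436-28807424, plus strand), the paralog that can take the place of Rpl22 in the large subunit, differed in level between the classes. Its level was 1897 CPM in control and 1959 in mutant muscle-like cells, 1512 and 1464 in surface epithelium-like and 1438 and 1469 in mesenchyme-like cells. Endothelial-like cells had 928 and 977 CPM and macrophage-like cells 682 and 725. In the neural retina it was 765 and 909 CPM in progenitors, 442 and 499 in neurogenic cells, 469 and 506 in photoreceptors and 382 and 399 in amacrine cells. RPE-like cells had 1127 CPM in control and 1503 in mutant (0.41, interval 0.35 to 0.48). In progenitor-like cells its ratio was the highest of the set, 0.25 (0.22 to 0.28). The ratio was 0.18 in neurogenic-like (0.09 to 0.26), 0.11 in photoreceptor-like (0.02 to 0.20) and 0.06 in amacrine-like cells (-0.03 to 0.16, which includes 0). In mesenchyme-like cells it was 0.03, but there the clusters differed, with 1587 and 1660 CPM in the one led by Clec3b and 1579 and 1548 in the one led by Aldh1a2, and the cluster of lowest level in the control (928 CPM) fell from 776 to 53 cells. A gene annotated on the opposite strand, Gm33051, overlaps it.

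Rpl39l (chr16:10170226-10174911, plus strand), a paralog of Rpl39 known from male germ cells, had 612 UMIs in control and 362 in mutant over all cells. Of these, 435 and 271 were in mesenchyme-like cells, 26.4 and 27.9 CPM. Within that class the cluster led by Kera and Aldh3a1, genes of corneal stroma cells, held 182 and 157 UMIs, 76.8 and 68.1 CPM. An unnamed cluster had 64 UMIs in 155 control cells and 45 in 111 mutant cells (41.9 and 40.5 CPM). Pericyte-like cells had 35 UMIs in 84 control cells and 3 in 64 mutant cells (41.2 and 4.77 CPM). In RPE-like cells it had 9 and 3 UMIs, in photoreceptor-like cells 3 and 0, and no direction between genotypes can be read from so few. The lower level over all mutant cells stood beside fewer mesenchyme-like cells, 819 against 1979. The near-equal level of the class stood beside a different mix of clusters, since the Kera cluster, where Rpl39l is highest, held 159 of the control and 156 of the mutant cells. In the other mesenchyme-like clusters the level was 28.1 and 27.3 CPM (led by Clec3b and Pi16), 18.2 and 6.59 (Col1a1 and Dkk2), 13.4 and 9.25 (Pdgfrl and Fndc1) and 9.93 and 4.54 (Aldh1a2 and Col10a1), and the cluster led by Tnmd and C1qtnf3 had 16 UMIs in 87 control and 11 in 41 mutant cells. The mutant values of the Dkk2 and Aldh1a2 clusters rest on 1 and 9 UMIs, so no direction within clusters is read from these counts.

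Rpl3l, a paralog of Rpl3 known from heart and skeletal muscle, had 20 UMIs in control and 24 in mutant. Of these 12 and 19 came from photoreceptor-like cells (3.49 and 4.45 CPM) and 0 from muscle-like cells of either library. The cluster of rods with Nr2e3 held 7 and 10 of them. Rps27l, a paralog of Rps27 that p53 induces, was more even. Outside red blood-like cells it ranged from 324 CPM in mutant amacrine-like to 788 CPM in mutant melanocyte-like cells. In RPE-like cells it had 442 CPM in control and 575 in mutant. Rpl36al, an intronless copy of the X-linked Rpl36a, had 349 and 466 CPM in RPE-like cells (0.42) and 490 and 448 in progenitor-like cells (-0.13).

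**Figure D5:**
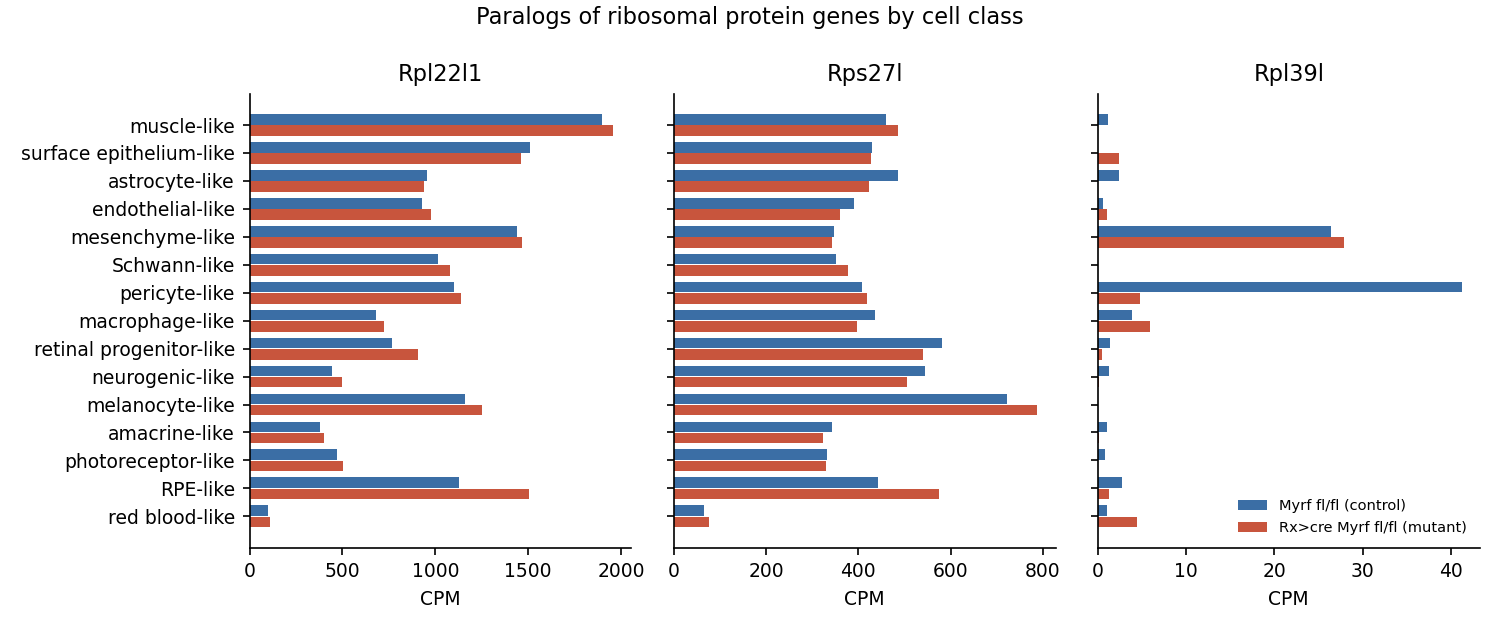
Level in CPM (x axes) of the paralogs Rpl22l1, Rps27l and Rpl39l by cell class (y axis), control in blue and mutant in red. Rpl22l1 is high in muscle-like, surface epithelium-like and mesenchyme-like cells and lowest of the neural retina in amacrine-like cells (382 and 399 CPM), with RPE-like cells at 1127 and 1503 CPM; Rpl39l is highest in control pericyte-like (41.2 CPM) and in mesenchyme-like cells (26.4 and 27.9 CPM).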

How the data were processed

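Dissociated eye cup cells were captured on the 10x Genomics platform. The deposited count matrices hold UMI counts per gene and barcode that the authors made with Cell Ranger (7.1.0 in the submitters' processing notes, 3.1.0 in the matrix headers) on GRCm38. The 2 libraries held 14305 and 12222 barcodes with 79017429 and 76272867 UMIs. Barcodes with at least 200 genes and at most 15% mitochondrial UMIs were kept. Doublets were ranked with Scrublet (scanpy 1.11.5) and removed at 0.8% per 1000 barcodes (1617 and 1176 cells), since Scrublet's own threshold called 0% of the control library. The methods of the study state an upper limit of 2000 UMIs, which 80.2% and 92.1% of barcodes exceed, so it was used only as an alternative. Cells were clustered in Seurat 5.3.0 (R 4.3.3; 2000 variable genes, anchor integration, 30 components, Louvain at resolution 1) with 265 genes kept out, the ribosomal protein genes among them.

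A cluster was named where at least 3 of a class's markers, and at least 50% of them, were detected in 10% of its cells and 1.5-fold above other cells. Clusters below a set limit of depth relative to their library stayed unnamed, while some shallow clusters above that limit were named. The limits for names were chosen after looking at the clusters, and rebuilt names may differ from those of the study. UMIs were summed per class and library (scipy 1.17.1), with exact Clopper-Pearson intervals for shares and exact conditional intervals for ratios at 95%. UMIs are single molecules, but cells of a library are not replicates, so no p-value was computed. A gene was compared with at least 50 UMIs over both libraries and called at a log2 ratio of 0.32 with 1 CPM added (1.5-fold against other cells). The ratio code was tested on simulated counts with known fold changes. Genes named in the text were the 5 most abundant, the 5 of widest range between classes, the 4 highest and 4 lowest ratios in RPE-like and progenitor-like cells, all paralogs and the stalk genes. Other genes are named as examples. A few genes that these rules select are not reported here. The genes, lists and limits were chosen with earlier results of these data known. Alternatives covered mitochondrial and UMI limits, doublets, thinning, depth range, resolution, total, member list, minimum count, added CPM and scaling.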

Additional observations from a re-analysis of the deposited data

Results flagged for a closer look

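In 2 of the 7 classes with at least 100 cells in each library the ribosomal protein share was higher in the mutant, while it was lower in the other 5. The log2 ratio was 0.37 in RPE-like and 0.02 in endothelial-like cells, against -0.07 to -0.02 in the classes where it was lower. In mesenchyme-like cells, at -0.02, the direction turned to 0.04 after thinning to 1000 UMIs per cell. Each ratio comes from 1 library per genotype, and the difference between classes was not tested. In endothelial-like cells of 4000 to 8000 UMIs the ratio was -0.11 (50 and 40 cells), and in RPE-like cells of that depth 0.26 (45 and 26 cells).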

How the results depend on the processing

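No paired analysis was possible because each genotype had 1 library. The log2 ratio of the share in RPE-like cells, 0.37, stayed above 0 in all alternatives run: 0.43 with a mitochondrial limit of 5%, 0.24 with at most 2000 UMIs per cell, 0.32 with called doublets kept, 0.25 after thinning and 0.26 in cells of 4000 to 8000 UMIs. Among alternatives added after seeing the data it was 0.31 without the 50 most abundant other genes, 0.60 in cells with Xist and 0.33 in cells with Y-linked transcripts. The cells split by Xist and Y-linked transcripts were deeper than the class and of unequal depth in the libraries. The 50 genes past the log2 limit of 0.32 became 19 after thinning, 24 in cells of 4000 to 8000 UMIs, 76 in cells with Xist and 1 when scaled to the ribosomal protein sum, where 45.7%, 43.7%, 47.4% and 60.2% of all genes passed it. In cells with Y-linked transcripts they became 36, where 47.9% of all genes passed it. With at most 2000 UMIs per cell 33 of 79 were higher and 1 lower, where 31.9% of all genes were higher and 24.2% lower. The ratio over all cells, -0.06, was -0.07 with the 5% limit, -0.18 with at most 2000 UMIs, -0.03 at 4000 to 8000 UMIs and -0.06 after thinning or without mitochondrial genes. In progenitor-like cells, -0.03 became -0.01 (5% limit), -0.26 (2000 UMIs), -0.02 (doublets kept or resolution 0.5), -0.05 (thinned) and -0.04 (no mitochondrial genes), and turned to 0.01 at 4000 to 8000 UMIs; the genes past the limit were 27 with at most 2000 UMIs and 1 with no minimum (49.8% and 10.8% of all genes). Progenitor-like over photoreceptor-like cells, 0.47 and 0.46 in control and mutant, was 0.49 and 0.46 with the 5% limit, 0.70 and 0.64 with at most 2000 UMIs, 0.29 and 0.29 with doublets kept, 0.52 and 0.48 thinned, 0.41 and 0.44 at 4000 to 8000 UMIs, 0.45 and 0.44 without mitochondrial genes, and 0.23 and 0.26 at resolution 0.5. The causes were not tested. The limit of 2000 UMIs and the depth range leave fewer cells.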

Other observations

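Outside the RPE-like class the counts of regulators of ribosome production past a log2 ratio of 0.32 were too small to set the list apart from all genes. Past it were 1 of 12 in progenitor-like cells (12.2% of all genes), 1 of 11 in neurogenic-like cells (17.9%), 0 of 11 in photoreceptor-like cells (17.9%) and 1 of 12 in mesenchyme-like cells (14.5%), while in amacrine-like and in endothelial-like cells 1 of 12 was higher and 1 lower (18.5% and 24% of all genes). The genes named here are examples chosen after their values were seen. Over all cells Mycn, a driver of ribosomal gene transcription in neural progenitors, had 5677 UMIs in control and 7236 in mutant (log2 ratio 0.44), but this sum mixes classes whose numbers of cells differ between the libraries. Within classes the ratio was 0.29 in progenitor-like and in neurogenic-like cells, under the limit of 0.32, 0.10 in photoreceptor-like and -0.10 in amacrine-like cells. In mesenchyme-like cells Mycn had 215 and 84 UMIs (-0.54) and in endothelial-like cells 90 and 37 (-0.42). Myc went the other way in these classes, with 381 and 261 UMIs (0.21) and 34 and 40 UMIs (1.01), against -0.24 over all cells. In retinal progenitor-like cells Eif4ebp1, which holds back cap-dependent initiation, had 1486 and 2435 UMIs (0.42). Its ratio was 0.63 in neurogenic-like cells (144 and 262 UMIs) and 0.00 in mesenchyme-like cells. In amacrine-like cells it was -0.33, but this rests on only 43 and 47 UMIs. In progenitor-like cells the initiation factor gene Eif2s3x, which lies on the X chromosome, had 960 and 1628 (0.47), and it was at 0.62 in amacrine-like, 0.54 in photoreceptor-like, 0.39 in neurogenic-like and 0.29 in mesenchyme-like cells. The mix of sexes differed between the pools. Among RPE-like cells Xist alone was counted in 81 control and 80 mutant cells, and Y-linked transcripts alone in 129 and 36. The part of this mix in the Eif2s3x ratio was not tested. Biogenesis genes in progenitor-like cells had a median of 0.04, from -0.33 for Bop1 to 0.14 for Gar1.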
